A study of Saccharomyces cerevisiae with 6 samples.

Results

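The late steps of ergosterol synthesis were followed in budding yeast (Saccharomyces cerevisiae) through 8 genes: the enzymes ERG6, ERG2, ERG3, ERG5 and ERG4, the electron carrier CYB5, and the transcription factors UPC2 and ECM22. They were taken by gene symbol from the 979 yeast genes of a custom oligonucleotide array, and all 8 were present, each with 1 probe. Total RNA was amplified, labelled with biotin and hybridized to 6 single-colour arrays, 3 carrying RNA of the wild type and 3 RNA of that strain with ACC1 overexpressed. ACC1 encodes acetyl-CoA carboxylase, which makes malonyl-CoA for fatty acid synthesis and draws on the acetyl-CoA that also feeds sterol synthesis. The labels give no strain background, promoter, plasmid, medium, growth phase or number of clones, and they do not say whether the arrays of a group came from separate cultures. The p-values therefore measure the spread between these arrays, which may be technical. In whole cultures, fewer cells expressing a gene and less of its RNA per cell cannot be told apart.

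Ergosterol is the main sterol of fungal membranes, where it takes the place that cholesterol has in animals. In the late part of its synthesis, zymosterol is methylated on its side chain by the ERG6 enzyme, an unsaturated bond in the ring is moved by the ERG2 isomerase, further unsaturated bonds are made by the ERG3 and ERG5 desaturases, and the ERG4 reductase completes the molecule. Mutants lacking any of these enzymes are viable and build their membranes from sterol intermediates. UPC2 and ECM22 are paralogous zinc cluster activators that bind the sterol regulatory element of many ERG promoters, and UPC2 senses ergosterol directly and is known for its induction when sterol is scarce or oxygen is low.

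Every value below was read from a single 35-base probe per gene. The probes of 5 of the genes are shown 5′ to 3′, because UPC2 and ECM22 are paralogues whose signals could be confused, and because ERG2, ERG5 and ERG3 carry the differences or the spread described below. Capitals mark the longest run that a probe shares with any other probe of the array in the same orientation.
UPC2: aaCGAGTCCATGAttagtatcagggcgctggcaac
ECM22: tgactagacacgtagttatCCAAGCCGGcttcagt
ERG2: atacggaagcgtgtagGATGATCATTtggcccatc
ERG5: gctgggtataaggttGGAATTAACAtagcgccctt
ERG3: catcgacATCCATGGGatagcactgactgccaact
The UPC2 and ECM22 probes share no run longer than 4 bases with each other, and over all 8 genes the longest run shared with any other probe was 9 to 11 bases. Only probes of the array were compared, so this does not show which other transcripts a probe binds. By their names in the files, these probes cover bases 2095 to 2129 of the UPC2 coding sequence (YDR213W, chromosome IV) and 1678 to 1712 of ECM22 (YLR228C, chromosome XII). They cover bases 273 to 307 of ERG2 (YMR202W, chromosome XIII), 1270 to 1304 of ERG5 (YMR015C, chromosome XIII) and 419 to 453 of ERG3 (YLR056W, chromosome XII). All of these positions are exonic, within the coding sequence. The letters are the reverse complement of the coding strand: read in the frame given by those positions, 441 of the 979 yeast probes held a stop codon as deposited, and 0 of 979 did after reverse complementing. The labelling protocol describes amplified RNA that is antisense to the mRNA, as these letters are. The labels do not state which strand was placed on the array, and the bearing of this on the signals was not tested.

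Median intensities over the yeast spots were 3686 to 4565 on the wild type arrays and 1796 to 2022 on the ACC1 overexpression arrays. Before normalization the 8 genes were accordingly 1.87 (ERG5) to 2.35 times (ERG6) brighter in wild type, and intensities were therefore taken to log2 and quantile normalized. Each group had arrays of its own, so a difference of hybridization or scanning and the difference of strain cannot be told apart. The ACC1 probe was 11.67, 11.76 and 11.87 in wild type and 14.00, 14.12 and 14.13 in ACC1 overexpression (normalized log2 intensity, replicates 1 to 3), so every array labelled as overexpressing ACC1 lay above every wild type array.

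None of the 8 genes passed the threshold of 0.05 on the adjusted p in limma (Benjamini-Hochberg over all 979 genes), against 3.47% of all genes on the array, 2.66% of them higher and 0.817% lower. At an unadjusted p under 0.05, without background correction, the count was again 0 of 8, against 20.1% of all genes. The log2 differences, ACC1 overexpression minus wild type, ran from −0.12 (UPC2) to 0.15 (ERG2), with 5 positive and 3 negative and a median of 0.0031. The signs were not stable: 2 were positive with cyclic loess (median −0.012) and without wild type replicate 1 (median −0.096), 3 with array weights (median −0.074), and 6 without wild type replicate 3 (median 0.046). Over all genes the median difference was −0.0088 and the median absolute difference 0.077. The 2 groups did not overlap for ERG5, which was higher, as for 13.3% of all genes, and for UPC2, which was lower, as for 11.4%. These were 2 of the 8 genes, against 24.7% of all genes in either direction.

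**Figure D1:**
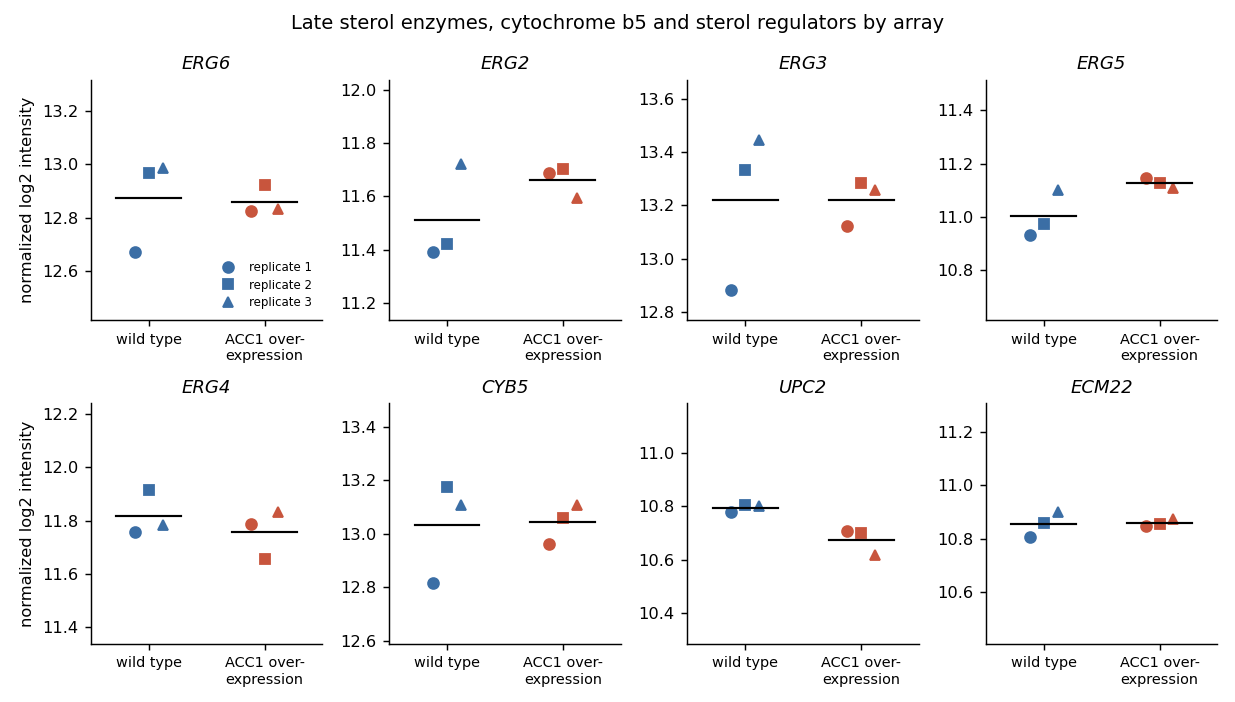
Normalized log2 intensity (vertical axis, each panel spanning the same range of 0.9 units) of the 8 genes in the 3 wild type arrays (blue) and the 3 ACC1 overexpression arrays (red). Marker shapes are replicate numbers and black lines are group means; the groups overlap for every gene except ERG5 and UPC2.

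ERG6, the sterol methyltransferase that acts on zymosterol, stood at 12.67, 12.97 and 12.99 in wild type replicates 1 to 3 and at 12.83, 12.92 and 12.83 in ACC1 overexpression. Wild type replicate 1 was the lowest of the 6 arrays and the other two wild type arrays the highest, so the groups overlapped fully. The group means were 12.87 ± 0.18 and 12.86 ± 0.054 (SD, n = 3 each). Their difference was −0.014 on the log2 scale with a 95% interval of −0.21 to 0.18 (adjusted p in limma = 0.963). Without wild type replicate 1 it was −0.12 (adjusted p = 0.379).

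ERG2, the sterol isomerase and a classic target of UPC2 and ECM22, had the largest positive difference of the 8 genes. It stood at 11.39, 11.42 and 11.72 in wild type and at 11.69, 11.70 and 11.60 in ACC1 overexpression. Wild type replicates 1 and 2 lay below all ACC1 overexpression arrays, and wild type replicate 3 lay above them. The difference was 0.15 (standard error 0.089, 95% interval −0.052 to 0.35, adjusted p in limma = 0.389). Arrays with equal replicate numbers carried every spot in an identical layout, and within layouts 1, 2 and 3 the ERG2 difference was 0.29, 0.28 and −0.12. The value moved with each wild type array. Without wild type replicate 1 it was 0.091, without replicate 2 it was 0.10, and without replicate 3 it was 0.25 and passed (adjusted p in limma = 0.0363), in a fit that called 12.6% of all genes. It also passed with array weights (0.22, adjusted p = 0.0361), a fit that called 18% of all genes and gave wild type replicates 1, 2 and 3 weights of 0.44, 3.60 and 0.48.

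ERG3, the desaturase that acts in the sterol ring with electrons from cytochrome b5, varied most between arrays. Its values were 12.88, 13.33 and 13.44 in wild type and 13.12, 13.29 and 13.26 in ACC1 overexpression. Wild type replicates 1 and 3 differed by 0.56, while the ACC1 overexpression arrays spanned 0.16. The group means were 13.22 ± 0.30 and 13.22 ± 0.087 (SD, n = 3 each), and the difference was 0.0019 with the widest interval of the 8 genes, −0.29 to 0.30 (adjusted p in limma = 0.995). Leaving out wild type replicate 1 moved it to −0.18 (adjusted p = 0.259).

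ERG5 encodes the cytochrome P450 that desaturates the sterol side chain. It stood at 10.93, 10.97 and 11.10 in wild type and at 11.14, 11.13 and 11.11 in ACC1 overexpression. The groups did not overlap, but wild type replicate 3 was only 0.0063 below its counterpart in the same layout. The difference was 0.12 (standard error 0.061, 95% interval −0.015 to 0.26, adjusted p in limma = 0.298). ERG5 lay above the 95th percentile of the control probes, taken as background, on 2 of the 3 wild type arrays and on all ACC1 overexpression arrays.

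ERG4, the reductase of the final step, stood at 11.76, 11.91 and 11.78 in wild type and at 11.79, 11.66 and 11.83 in ACC1 overexpression. The replicate 2 arrays were the highest in wild type and the lowest in ACC1 overexpression. The difference was −0.059 (95% interval −0.22 to 0.099, adjusted p in limma = 0.684), and −0.0072 without ACC1 overexpression replicate 2 or −0.011 without wild type replicate 2. CYB5, which encodes cytochrome b5, stood at 12.82, 13.17 and 13.11 in wild type and at 12.96, 13.06 and 13.11 in ACC1 overexpression. As with ERG6 and ERG3, wild type replicate 1 was the lowest array. The CYB5 difference was 0.011 (95% interval −0.20 to 0.22, adjusted p in limma = 0.967), and −0.10 without wild type replicate 1.

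The regulators were dim. UPC2 lay above background on 1 wild type array and on 0 of the ACC1 overexpression arrays, and ECM22 on 1 array of each group. UPC2 stood at 10.78, 10.81 and 10.80 in wild type and at 10.71, 10.70 and 10.62 in ACC1 overexpression. All ACC1 overexpression arrays were below all wild type arrays, and the difference was negative within layouts 1, 2 and 3 (−0.071, −0.11 and −0.18). The normalized signals differed by −0.12 (standard error 0.054, 95% interval −0.24 to 0.0027, adjusted p in limma = 0.258). This is a difference between signals near background, and no fold is given for UPC2, because the wild type mean of 10.79 did not reach the 10.87 that served as the lowest level measurable above background on the ACC1 overexpression arrays. ECM22 stood at 10.81, 10.86 and 10.90 in wild type and at 10.85, 10.86 and 10.87 in ACC1 overexpression, where the narrower range lay inside the wider one. The ECM22 difference was 0.0043 (95% interval −0.12 to 0.13, adjusted p in limma = 0.977).

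The treatment of background moved ERG2, ERG5, ERG4 and UPC2 most, each to over 1.5 times its difference in the main setting. ERG6, ERG3, CYB5 and ECM22 stayed near 0, where such a ratio says little. The deposited intensities have no background column, and a background left in the signal makes the differences of dim genes smaller. After a normexp correction of the foreground with an offset of 50, ERG5 stood at 0.37 (95% interval 0.028 to 0.71, adjusted p in limma = 0.200) and ERG2 at 0.29 (−0.087 to 0.67, adjusted p = 0.367), while ERG4 stood at −0.098 (adjusted p = 0.762). For UPC2, whose signal in ACC1 overexpression was not above background, the corrected signals differed by −0.45 (95% interval −0.74 to −0.17, adjusted p in limma = 0.0918). In a correction that used the control probes as negatives they differed by −0.31 (−0.58 to −0.036, adjusted p = 0.180). Neither value measures a fold. Unadjusted p in limma was under 0.05 for ERG5 and UPC2 after the foreground correction (0.0366 and 0.00508) and after the one with control probes (0.0317 and 0.0294). The share of all genes under 0.05 in these fits is not given here. With scaling to a common median in place of quantile normalization, the sign of UPC2 turned (0.037, adjusted p = 0.666), and ECM22 stood at 0.14 (adjusted p = 0.128). The intervals are for each gene alone and are not adjusted for the number of genes. The bright genes ERG6, ERG3 and CYB5 stayed within 0.02 of 0 after both corrections, with 95% intervals after the correction of the foreground that reached from −0.38 to 0.39 at their widest, in ERG3.

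**Figure D2:**
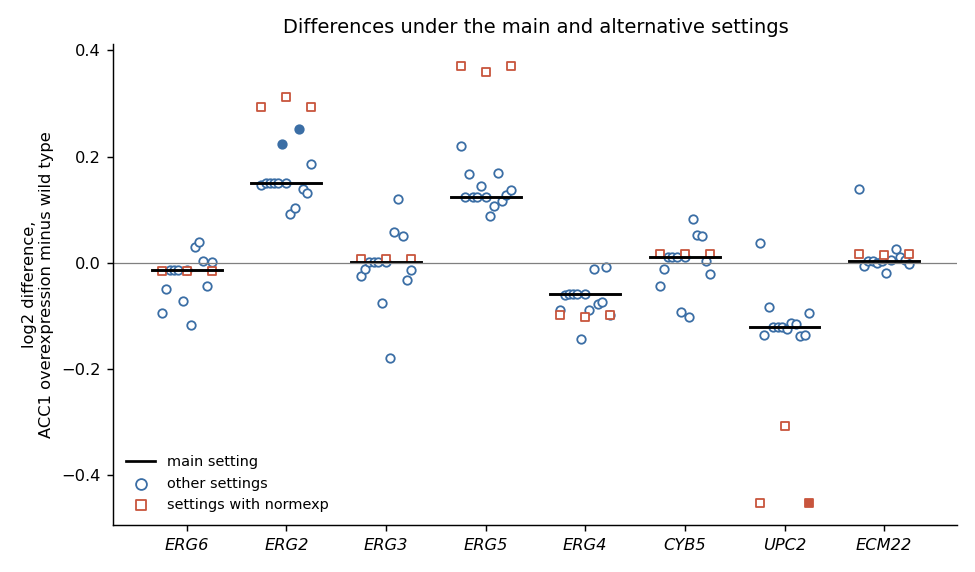
Log2 difference (vertical axis) of each gene under the main setting (black line) and the alternative settings (blue circles, or red squares where a normexp background correction was part of the setting); filled symbols passed an adjusted p of 0.05. ERG2 passed under 2 settings and UPC2 under 1, and UPC2 and ERG5 moved furthest from 0 with background correction.

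Some of the 8 genes varied together from array to array. Over the 6 arrays, Pearson's r was 0.963 between ERG6 and ERG3, 0.923 between ERG3 and CYB5, 0.886 between ERG6 and CYB5, and 0.934 between ERG3 and ECM22. Among the 978 other genes of the array, 3 had an r with ERG3 at least as high as that of ERG6, ERG6 included, 12 as high as that of ECM22, and 17 as high as that of CYB5. ERG6, ERG3, CYB5 and ECM22 overlapped between the groups. A second pair was ERG2 and ERG5 (r = 0.947), both above their own means on all ACC1 overexpression arrays and below them on wild type replicates 1 and 2, so that a difference between groups enters this r. At least as close to ERG2 as ERG5 were 12 of 978 genes. UPC2 and ERG4 followed neither pattern, with r from −0.59 to 0.22 between UPC2 and the other 7 genes and a highest r of 0.44 (with CYB5) for ERG4. The deviations rest largely on wild type replicate 1, where ERG3 was 0.34, CYB5 0.22, ERG6 0.20 and ERG2 0.19 below their own means over the 6 arrays. The points share arrays and their normalization, and the wild type arrays had the larger SD for 6 of the 8 genes and for 606 of all 979.

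**Figure D3:**
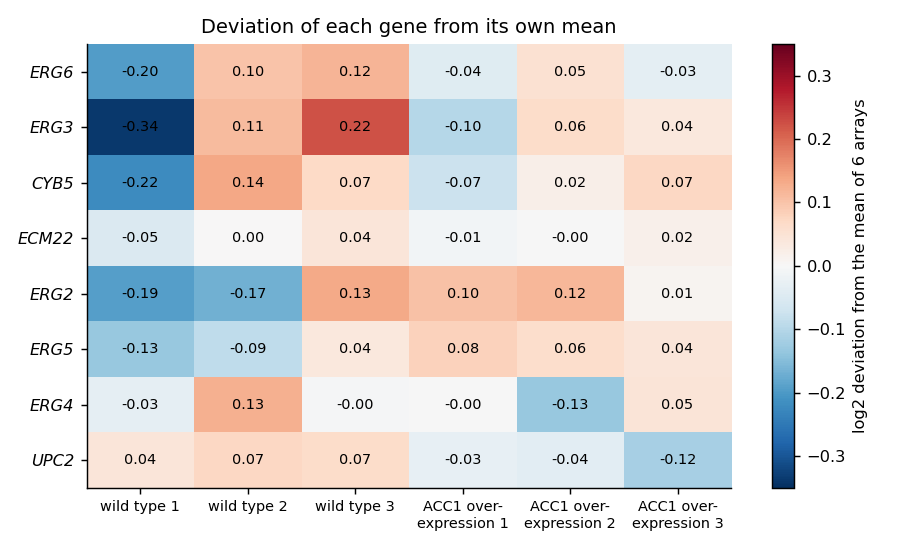
Deviation of each gene (rows) from its own mean over the 6 arrays (columns), in log2 units, with red above and blue below the mean. ERG6, ERG3, CYB5, ECM22, ERG2 and ERG5 were lowest in wild type replicate 1. UPC2 was positive in the 3 wild type arrays and negative in the 3 ACC1 overexpression arrays, a difference whose sign turned with common median scaling.

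The late genes were set against the earlier steps of the same pathway, from acetyl-CoA to zymosterol. Of 18 earlier genes listed and measured, only ERG11, the lanosterol demethylase and target of azole drugs, passed the threshold. It was higher in ACC1 overexpression by 0.86 (standard error 0.10, adjusted p in limma = 0.00407), and the other 17 did not pass. This was 1 of 18, against 3.47% of all genes, and 4 of the 18 had an unadjusted p under 0.05, against 20.1% of all genes. Without ACC1 overexpression replicate 2 ERG11 missed the threshold (0.86, adjusted p = 0.0551). The earlier genes had a median difference of −0.0039, close to that of the late genes and of all genes. They ran from −0.17 (ERG12, mevalonate kinase) to 0.34 (ERG28, the scaffold of the sterol demethylation complex, adjusted p = 0.127) beside ERG11. UPC2 was left out of a direct comparison with ERG11, because it was not above background in ACC1 overexpression. The change of ERG11 exceeded that of each of the other 7 genes, by 0.70 (ERG2) to 0.91 (ERG4) on the log2 scale. The within-array difference between ERG11 and the late gene did not overlap between groups in any of the 7 cases, and an exact two-sided permutation test gave p = 0.1 for each (0.1 also after adjustment over the 7), the smallest value that 3 against 3 arrays allow. ERG11 was singled out for its known change, its own groups did not overlap, and the 7 cases share its values. The outcome was therefore largely set in advance. It describes the gap, does not support it independently and does not count as 7 separate results. In the main setting the upper 95% bounds of the late enzymes, CYB5 and ECM22 corresponded to 1.07-fold (ERG4) to 1.28-fold (ERG2) higher signal. All were below the lower bound of ERG11. ECM22 was above background on only 1 array of each group. Its difference and bound describe a signal near background and do not limit a change of its RNA. After the foreground correction the bounds reached 1.64-fold for ERG5 and 1.59-fold for ERG2, against an ERG11 interval of 1.86 to 3.22-fold.

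**Figure D4:**
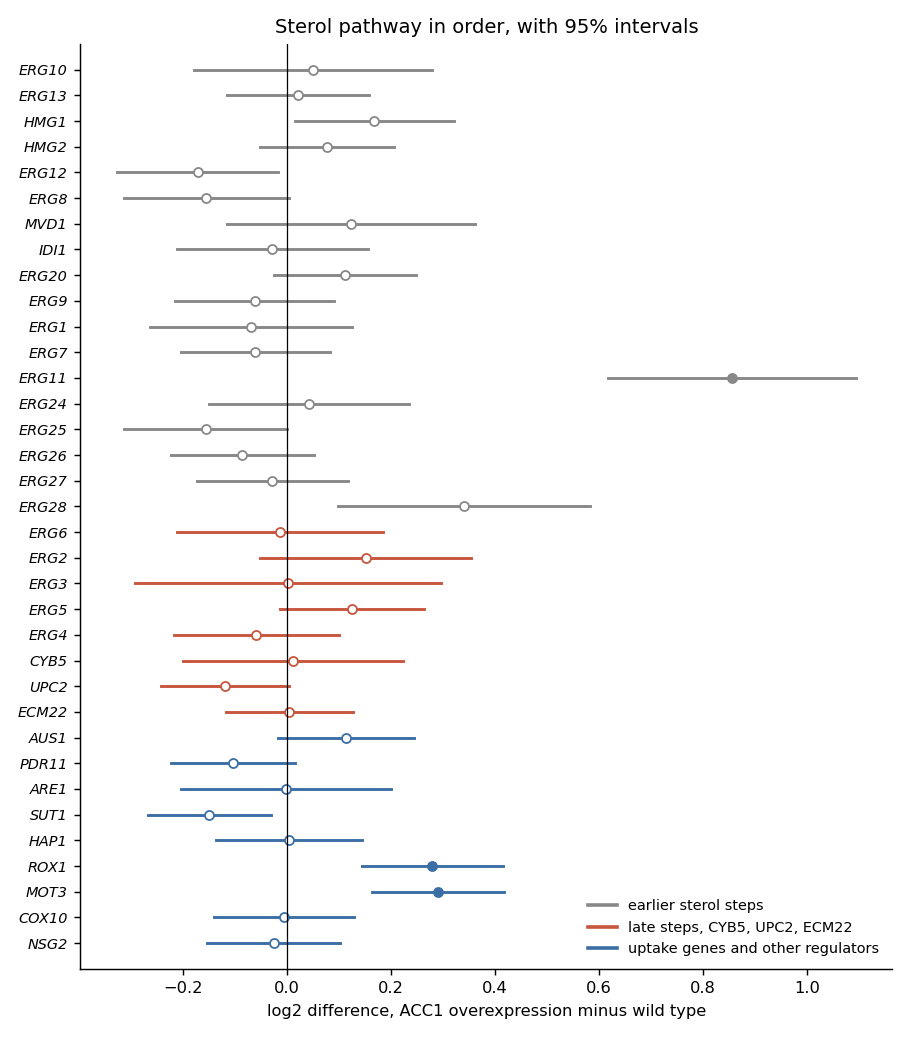
Log2 difference between ACC1 overexpression and wild type (horizontal axis, points) with 95% intervals (lines) for the earlier sterol steps in pathway order (grey), the 8 late genes and regulators (red), and the measured genes of the sterol uptake and regulator lists (blue). Filled points, ERG11, ROX1 and MOT3, passed an adjusted p of 0.05.

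Genes that work beside UPC2 and ECM22 were examined in lists of their own. One list held 15 genes, regulators of sterol and hypoxic genes with some related genes such as COX10 and NSG2. It was drawn up with earlier results of these data known. Of the 15 genes, 5 were measured and 2 were higher in ACC1 overexpression, against 2.66% of all genes. These were ROX1 and MOT3, which encode repressors of hypoxic genes. The list median was 0.0038. ROX1 stood at 11.05, 11.14 and 11.20 in wild type and at 11.45, 11.37 and 11.41 in ACC1 overexpression, a rise of 0.28 (standard error 0.060, adjusted p in limma = 0.0413). MOT3 stood at 11.61, 11.59 and 11.67 in wild type and at 11.90, 11.87 and 11.96 in ACC1 overexpression, a rise of 0.29 (standard error 0.056, adjusted p in limma = 0.0393). Neither gene overlapped between groups. ROX1 lay above background on 2 of the 3 wild type arrays and on all ACC1 overexpression arrays, and MOT3 on all arrays. After the foreground correction ROX1 stood at 0.66 (adjusted p = 0.0293) and MOT3 at 0.49 (adjusted p = 0.0568), so the MOT3 call was lost there. Both calls were also lost without wild type replicate 2 (adjusted p = 0.199 for ROX1 and 0.185 for MOT3) and without ACC1 overexpression replicate 1 (0.142 and 0.104), 2 (0.148 and 0.137) or 3 (0.148 for each). Without wild type replicate 1 the ROX1 call was lost too (0.23, adjusted p = 0.0738). In the fits without wild type replicate 2 or an ACC1 overexpression array, the differences themselves were 0.26 to 0.31 for ROX1 and 0.26 to 0.32 for MOT3. Both genes lay just under the threshold, and in simulated data the fit gave more false calls than the nominal share. HAP1, the heme-responsive activator, stood at 0.0038, NSG2, which stabilizes HMG-CoA reductase, at −0.026, and COX10 of heme A synthesis, which was above background on 0 arrays, at −0.0069.

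Of 13 genes of sterol uptake and of the anaerobic programme of UPC2, 4 were measured and none passed (1 at an unadjusted p under 0.05, list median −0.054). The DAN and TIR cell wall genes, well-known anaerobic targets of UPC2, were not among those measured. AUS1 and PDR11, the transporters that take up sterol without oxygen, stood at 0.11 and −0.10 (adjusted p in limma = 0.311 and 0.305). Of the 4 measured genes, the groups did not overlap for 1 that was higher (AUS1) and 2 that were lower (PDR11 and SUT1). Over all genes 24.7% did not overlap, counting both directions. The steryl ester synthase gene ARE1 stood at −0.0028. SUT1, a regulator of sterol uptake, stood at 11.03, 11.09 and 11.04 in wild type and at 10.91, 10.88 and 10.92 in ACC1 overexpression, a difference of −0.15 that did not pass (adjusted p in limma = 0.156). SUT1 lay above background on only 2 arrays of each group. It stood at −0.46 after the foreground correction (adjusted p = 0.0918) and at −0.036 with a common median (adjusted p = 0.653), and it passed with array weights (−0.18, adjusted p = 0.0217), where 18% of all genes did, and with the replicate block after the foreground correction (−0.46, adjusted p = 0.0271), where 14.5% did.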

How the data were processed

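The 6 arrays had 1 file each. Per the file headers, the deposited intensity of a spot is the median of its foreground pixels, for 2240 spots on an array, without a column for background. The scanner software and any earlier subtraction of background are not stated. The authors' deposited value table (906 rows of a score per array, scale and centring unstated) was not used for genes, since its row numbers did not follow the probe numbers (r from −0.052 to −0.035). Log2 intensities of yeast spots were quantile normalized without the 26 control probes, and the 2 to 4 spots of a probe were averaged. Groups came from the sample labels and were compared with limma 3.58.1 in R 4.3.3 (lmFit and eBayes, two-sided, Benjamini-Hochberg over 979 genes). Above background meant brighter than the 95th percentile of the array's control probes. All 979 systematic names matched the R64 gene table, used for names and chromosomes only. The fit was tested on simulated data with 200 genes changed: no called gene had the wrong sign and false calls exceeded the nominal share. How far a background left in the signal shrinks the sizes in the main setting was not tested. The foreground correction moved ERG5 from 0.12 to 0.37, ERG2 from 0.15 to 0.29 and ACC1 from 2.32 to 2.96. ERG6 stood at −0.014 before it and −0.015 after it. The 16 alternatives covered background correction, normalization, spot averaging, a filter on dim genes, variance moderation, array weights, the replicate block and each array left out. The planned main setting has no background correction. The 8 genes and the 5 other lists were chosen with earlier results of these data known. Named were the 8 genes, ACC1, genes past the threshold, all genes of lists with 6 or fewer measured, and the closest gene in pattern; the lowest and highest genes of other lists were named after their values were seen. Sequences upstream of the genes were not analysed here. The number of arrays limits the precision.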

Additional observations from a re-analysis of the deposited data

How the results depend on the processing

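None of the 8 genes passed in the main setting. Of the alternatives, array weights gave 1 (ERG2), the replicate block with normexp gave 1 (UPC2), and leaving out an array gave 0 to 1 (ERG2, without wild type replicate 3); the causes were not tested. The count over all genes was 34 in the main setting, 74 with a common median, 176 with array weights, 121 with the replicate block and 142 with the block and normexp, and 4 to 123 when 1 array was left out. Deviations of same-numbered arrays, which share a spot layout, correlated with r of 0.467, −0.021 and 0.385. Between wild type and ACC1 overexpression arrays of unequal numbers, which share no spot position, r ran from −0.498 to 0.086. These values do not settle whether the numbers pair the samples, and the replicate block was kept as an alternative. With the replicate block alone, 0 of the 8 genes passed (smallest adjusted p = 0.203). Over the 8 genes, ACC1, ERG11 and the 9 measured genes of the uptake and regulator lists, alternative settings left 285 values on the side of the threshold where they were, took 11 calls away, added 5 and reversed 0. A reversal meant a change of sign where the main or the alternative fit called the gene. Signs of uncalled genes did turn in some settings, among the 8 genes those of ERG6, ERG3, CYB5, UPC2 and ECM22. The filter on dim genes removed UPC2 and ECM22. No slide identity was used, so slide could not enter as a block. Signal over background limits UPC2 and ECM22 most.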

Other observations

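Genes that share electron carriers or sterols with the late steps held no call in limma. Of 9 genes listed as electron carriers and enzymes around cytochrome b5 and the P450 enzymes, 7 were measured and 0 passed (0 also at an unadjusted p under 0.05), with a median of −0.050. They ran from −0.19 (SCS7, the sphingolipid hydroxylase with its own cytochrome b5 domain) to 0.079 (NCP1, the P450 reductase). Of 14 genes of steryl ester formation, hydrolysis, acetylation and transport, 8 were measured and 0 passed (0 also at an unadjusted p under 0.05), with a median of 0.015. They ran from −0.10 (ATF2, an acetyltransferase that acts on sterols) to 0.18 (NCR1, the yeast relative of the Niemann-Pick sterol transporter).

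The gene outside the 8 whose pattern over the 6 arrays was most like each of them, among 971 compared, was GPB1 for ERG6 (r = 0.991), FUM1 for ERG2 (r = 0.976), TRM5 for ERG3 (r = 0.988), CDC19 for ERG5 (r = 0.993) and HST3 for ERG4 (r = 0.954). It was PKH3 for CYB5 (r = 0.986), NAT1 for UPC2 (r = 0.964) and VPS4 for ECM22 (r = 0.981). None of these genes passed the threshold between groups, and the values share arrays and normalization.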
